A study of Mus musculus with 4 samples.

Results

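The skeletal muscle contractile genes described here are Acta1, Myh1, Myh2, Myh4, Myh8, Ckm, Tnnt3, Tnnc2, Mylpf and Actn3, measured in mouse prostate. Their members were found by gene name alone: every probe of the arrays that is not a control and carries 1 of the 10 names was kept, whatever its brightness. This gave 19 probes of 41174, for 10 genes of 27962 gene names. Of the 19 probes, 12 passed the filter on dim probes and were tested, among 24912 tested probes in all, and each of the 10 genes had at least 1 tested probe.

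The 4 mice profiled were 60 days old and of mixed C57BL/6, 129/SVJae and FVB strain, and total RNA of prostate was used. The 2 mutant mice (Rb1R654W/F:Trp53F/F:PB-cre4) carried 1 Rb1 allele coding for the R654W form of the retinoblastoma protein and 1 conditional allele. The 2 null mice (Rb1F/F:Trp53F/F:PB-Cre4) carried a pair of conditional Rb1 alleles. All 4 mice also carried conditional Trp53 alleles and the PB-Cre4 transgene, in which the probasin promoter drives Cre recombinase in prostate epithelium. The reference was a pool of prostate RNA from 3 wild-type mice, whose age and strain the labels used here do not give. Each of 4 two-colour Agilent arrays held 1 mouse in red (Cy5) and the pool in green (Cy3), with no dye swap. The design asks how prostate with the R654W protein compares with prostate conditional for loss of Rb1, and how each compares with wild-type tissue.

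Skeletal muscle contracts when myosin heavy chain motors of the thick filament pull on actin thin filaments, and calcium released in the fibre permits this by binding the troponin complex. Fast fibres use their own forms of these proteins, which include most of the proteins coded by the 10 genes. The prostate gland itself has a smooth muscle stroma, and the striated sphincter of the urethra lies next to it. In whole tissue, fewer cells of a type and less RNA per cell cannot be told apart.

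The probes are 60 bases long, and their letters are shown first because the reading of each heavy chain rests on 1 to 3 of them. The heavy chain genes are close copies, so a stretch of bases that 2 probes share matters. The Myh8 probe A_51_P143296 (chr11:67389989-67390048, build mm7, plus strand) and the Myh1 probe A_51_P192042 (chr11:67306002-67306061, plus strand, first 30 bases shown) share 19 bases, in capitals, at positions 32 to 50 and 2 to 20 counted from the 5′ ends. 2 further probes of these genes are shown because they were not well above background in any channel of any array.
Myh8 A_51_P143296: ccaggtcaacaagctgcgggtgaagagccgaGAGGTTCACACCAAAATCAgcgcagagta
Myh1 A_51_P192042: gGAGGTTCACACCAAAATCAtaagcgaaga
Myh8 A_52_P224283: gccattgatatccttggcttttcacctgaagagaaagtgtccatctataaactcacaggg
Myh1 A_51_P364788: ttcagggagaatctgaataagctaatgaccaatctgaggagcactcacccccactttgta

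The dark Myh8 probe lies at chr11:67366452-67366511 and the dark Myh1 probe crosses a splice junction within chr11:67290894-67291996, both on the plus strand of mm7. Of the 171 pairs of member probes, 3 shared a run of 12 bases or more. Besides the Myh1 and Myh8 pair, the Myh2 probes A_51_P225134 and A_52_P552036 overlap on the genome and share 18 bases (CGCCTGTGTGATTCTATT, chr11:67279016-67279033), so they are not separate readings of Myh2. The Myh2 probe A_51_P225134 and the Myh4 probe A_51_P338072 share 12 bases. The remaining pairs shared at most 8. Whether other transcripts bind these probes was not tested. Acta1 is read by 1 probe on chromosome 8 (chr8:122479438-122479497, mm7, minus strand), shown because its tested probe had both mutant mice below both null mice.
Acta1 A_51_P246854: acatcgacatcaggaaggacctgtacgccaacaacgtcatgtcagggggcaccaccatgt

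Of the 19 probes, 15 run in the direction of their gene in the RefSeq table (GRCm38.p6), 1 Myh1 probe (A_52_P257638) runs against it, and 3 belong to Tnnt3 or Actn3, for which the table used gives no strand. Of the 19, 7 cross a splice junction, including the tested probes of Ckm, Tnnt3, Mylpf and Actn3.

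Probes of these genes gave signal in all 4 mice and in the wild-type pool, and whether other transcripts add to it was not tested. Of the 19 probes, 9 were well above background in both channels on all 4 arrays: the probes of Acta1, Tnnc2, Ckm, Mylpf and Actn3, 1 probe each of Myh1 and Myh8, and 2 of Myh2. Another 6 were not well above background in any channel or array, with background-subtracted signals of -4.35 to 19.4, and 4 lay in between: both of Myh4 and 1 each of Myh2 and Tnnt3. No member probe was saturated and none had an outlier flag. Over the 4 arrays, the pool channel of the 9 bright probes had a coefficient of variation of 2.77 to 9.43%, which gives the repeatability of the same RNA.

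**Figure D1:**
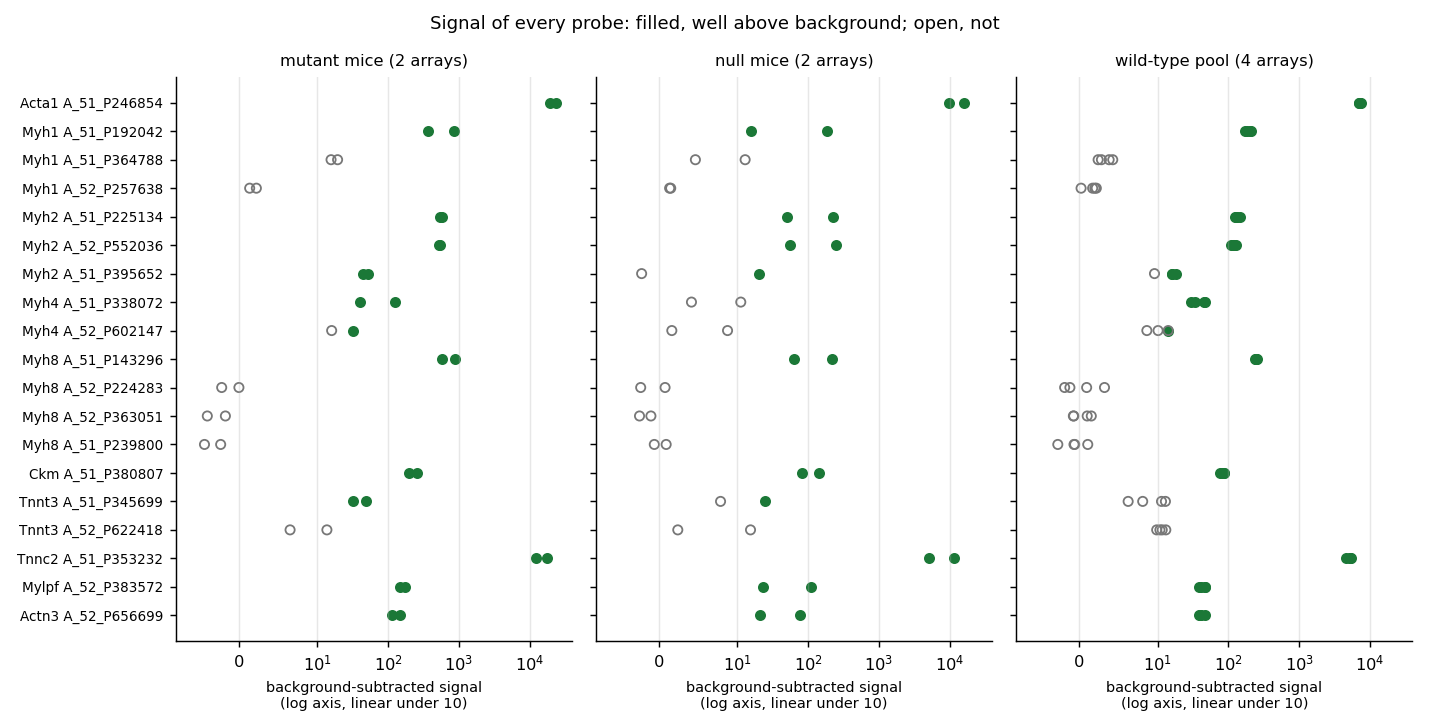
Background-subtracted signal of all 19 probes (horizontal axis, log scale, linear under 10) in mutant mice, null mice and the wild-type pool, one point per array, filled where well above background. The signals are not scaled between channels or arrays. Acta1 and Tnnc2 are bright on every array, while 3 of the 4 Myh8 probes and 2 of the 3 Myh1 probes are open in all panels.

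Acta1, the skeletal alpha-actin of the thin filament, gave background-subtracted signals of 23738 and 19608 in mutant mice 1 and 2 and of 9687 and 15806 in null mice 1 and 2, beside 7092, 7337, 7567 and 6962 for the pool on the same arrays. Tnnc2, the calcium-binding troponin C of fast fibres, gave 17787 and 12266 in the mutant mice and 5135 and 11598 in the null mice, with 5251, 5184, 4665 and 5478 for the pool. The lower mouse signal on the array of null mouse 1 was general: the mutant mice had medians over probes of 84.4 and 77.1 and null mice 1 and 2 had 19.3 and 51.3, while the pool channel lay between 22.8 and 23.3. Ratios below are normalised within each array and given as log2 of mouse over pool.

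The libraries also differed in other ways. All 11 prostate epithelial genes listed were well above background in both channels on all arrays. Heat shock genes stood high in null mouse 1, with median log2 ratios over 6 tested genes of 0.19 and 0.02 in the mutant mice, against 3.61 and 0.31 in null mice 1 and 2. Hspa8 was at 2.21 and Hsp90aa1, a cytosolic chaperone, at 3.56 in that mouse. Seminal vesicle secretory genes had medians of -4.13 and -0.79 in the mutant mice and -5.29 and -3.72 in the null mice over 5 tested genes, with Svs2 at -4.02, -0.79, -3.99 and -3.45 and Svs5 at -4.68, -0.09, -5.99 and -3.72 in the same order. Rb1 had log2 ratios of -0.65 and -0.24 in the mutant mice and 0.09 and -0.87 in the null mice, and the 2 tested Trp53 probes lay between -0.40 and 0.53. The positions of the deleted parts are not given in the sources used here and Cre acts in part of the tissue, so these values do not check the labels. What these differences contribute to the muscle gene values was not tested, and the member differences between the genotypes are also given without null mouse 1.

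Between mutant and null prostate, no member probe of 12 passed the threshold of an adjusted p under 0.05 in limma, where the share called over all 24912 probes was 0.0%. At an unadjusted p under 0.05, 3 of 12 member probes were higher in mutant mice, 1 of Myh8 and 2 overlapping ones of Myh2, against 1.2% of all probes. None was lower, against 0.996% of all probes. Leaving out 1 mouse leaves 1 in a genotype, so counts from such fits cannot show whether these 3 probes rest on single mice. The differences of the 3 probes could only stay positive, since their genotypes did not overlap, but they changed in size with the mouse left out. For Myh8 the difference ran from 0.77 without mutant mouse 1 to 1.13 without mutant mouse 2. For Myh2 A_51_P225134 it ran from 0.50 without null mouse 1 to 0.91 without null mouse 2. For Myh2 A_52_P552036 it ran from 0.37 to 0.92 without the same mice. The genotypes were apart, with no overlap between mice, for 8 member probes that were higher in mutant mice, against 16.8% of all probes. For 1 member probe they were apart with mutant mice lower, against 13.6%. The 8 include the overlapping Myh2 pair and the dim Myh2 A_51_P395652, which passed the filter only through the mutant arrays. The median log2 difference was 0.18 over the 12 member probes and 0.02 over all probes. An exact permutation test of 2 against 2 mice cannot give a p below 0.333.

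**Figure D2:**
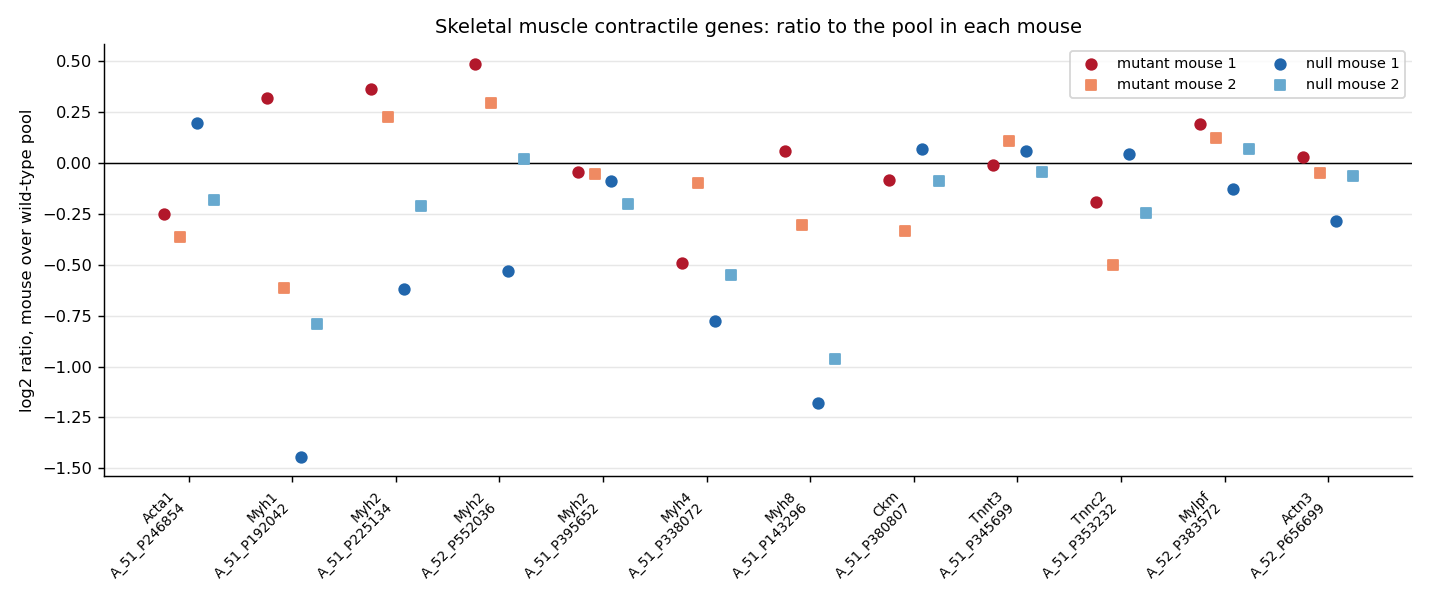
Log2 ratio of mouse over wild-type pool (vertical axis) for the 12 tested probes, one point per mouse. The points of the mutant mice lie above those of the null mice for all 6 heavy chain probes, and below them for Acta1.

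The widest member values were those of heavy chain probes. All 6 tested heavy chain probes, of Myh1, Myh2, Myh4 and Myh8, were higher in both mutant mice than in both null mice. None passed the threshold (adjusted p = 0.985 for each in limma). The 6 are not separate readings, since 2 Myh2 probes overlap. The dim Myh2 probe A_51_P395652 passed the filter only through the mutant arrays, which favours a higher mutant value. Myh8, the perinatal heavy chain, had log2 ratios of 0.06 and -0.30 in mutant mice 1 and 2, against -1.18 and -0.96 in null mice 1 and 2. The mutant mice lay near the pool and the null mice at about the same distance below it. The difference was 0.95 (SE 0.22, 95% interval 0.39 to 1.51), and 0.84 without null mouse 1. The background-subtracted signals behind this were 874 and 583 in the mutant mice and 62.3 and 219 in the null mice, with 254, 242, 244 and 238 for the pool. Only 1 of the 4 Myh8 probes was well above background.

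Myh1, the heavy chain of type IIx fast fibres, had log2 ratios of 0.32 and -0.61 in the mutant mice, against -1.44 and -0.79 in the null mice. Mutant mouse 2 lay closer to null mouse 2 than to mutant mouse 1, although the genotypes did not overlap. The difference was 0.97 (SE 0.40, 95% interval -0.05 to 1.99), and 0.64 without null mouse 1 and 0.50 without mutant mouse 1. Its signals were 850 and 365 in the mutant mice and 15.4 and 186 in the null mice, with 206, 204, 173 and 182 for the pool. The value rests on the probe that shares 19 bases with that of Myh8.

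Myh2 codes for the heavy chain of type IIa fast fibres. Its probe A_51_P225134 had log2 ratios of 0.36 and 0.22 in the mutant mice, against -0.62 and -0.21 in the null mice. Both mutant mice were above the pool and both null mice below it. The difference was 0.71 (SE 0.22, 95% interval 0.15 to 1.27), and 0.50 without null mouse 1. The overlapping probe A_52_P552036 gave 0.49 and 0.29 in the mutant mice and -0.53 and 0.02 in the null mice, a difference of 0.65 (SE 0.25) that was 0.37 without null mouse 1. The dimmer probe A_51_P395652, which crosses a splice junction, gave -0.04 and -0.06 in the mutant mice and -0.09 and -0.20 in the null mice. That difference was 0.09 (SE 0.18), with null mouse 1 not well above background, and 0.15 without that mouse. From Agilent processed signals it was 1.14, against 0.94 for A_51_P225134 and 0.90 for A_52_P552036. The order of the Myh2 probes by size therefore depended on the processing.

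Myh4, the heavy chain of type IIb fast fibres, was dim. Its probe A_51_P338072 had log2 ratios of -0.49 and -0.10 in the mutant mice, against -0.78 and -0.55 in the null mice, all below the pool, and a fitted difference of 0.37 (SE 0.22, adjusted p = 0.985 in limma). Its signals were 40.5 and 126 in the mutant mice, against 4.15 and 11.1 in the null mice, where neither array was well above background, and 29.3 to 46.9 for the pool. The size of the difference is therefore not measured by this probe, and the fitted difference was 0.57 without mutant mouse 1, 0.17 without mutant mouse 2, 0.26 without null mouse 1 and 0.48 without null mouse 2. The second Myh4 probe, A_52_P602147, was well above background on 1 mutant array, no null array and 1 of 4 pool readings, and was not tested.

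The size of the heavy chain differences depended on the processing, while the sign stayed positive for all 6 probes. Median centring also moved the median of all probes to 0.38. For Myh8 the log2 difference was 1.26 from Agilent processed signals, 1.24 with normexp offset 0 and 1.52 with median centring. For Myh1 it was 1.87, 1.54 and 1.5015 in the same order, and for Myh4 2.20, 1.23 and 0.47. Myh2 A_51_P225134 gave 0.94, 0.95 and 1.20, and the dim Myh2 A_51_P395652 gave 1.14, 0.36 and 0.02. Under median centring that last value lay below the median of all probes, and that of Myh4 close to it. The lowest adjusted p among heavy chain probes in limma was 0.971, 0.976 and 0.548 under these settings, and 0.179 without null mouse 2.

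**Figure D3:**
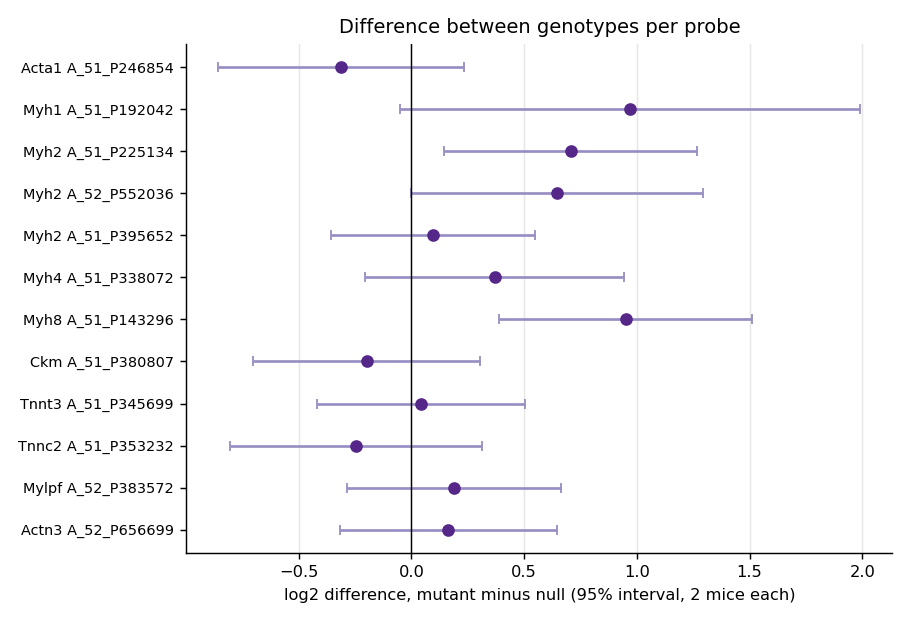
Log2 difference, mutant minus null (horizontal axis), for each tested probe, with 95% intervals from limma on 2 mice per genotype. The interval lies above 0 for Myh8 A_51_P143296 (0.39 to 1.51) and for Myh2 A_51_P225134 (0.15 to 1.27), before any adjustment for the 24912 probes tested.

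The 6 tested heavy chain probes lie within 115.7 kb of chromosome 11 (67274375 to 67390048, mm7), in the order Myh2, Myh1, Myh4 and Myh8. Within 500 kb on either side, 9 other probes were tested, and their median difference was 0.06. The genotypes did not overlap for 2 of the 9, both higher in mutant mice and both of A530088H08Rik, against 16.8% of all probes. None of the 9 was lower in mutant mice without overlap, against 13.6% of all probes. The neighbour Sco1, a gene for a copper chaperone of the mitochondrial respiratory chain, had differences of -0.0042 and -0.05 by its 2 probes. These neighbours were chosen by position and not for how they moved.

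**Figure D4:**
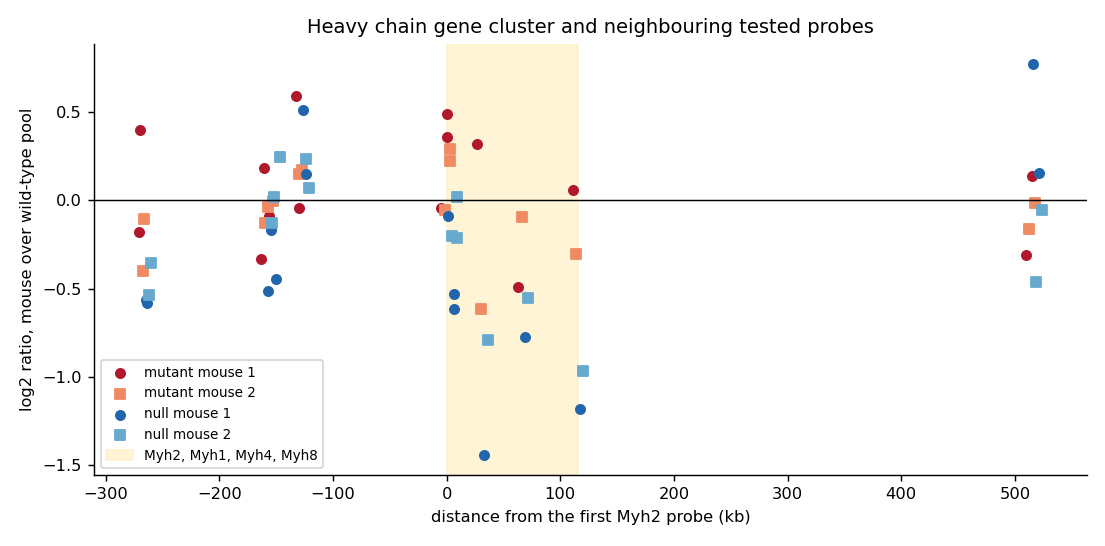
Log2 ratio of mouse over wild-type pool (vertical axis) against distance in kb from the first Myh2 probe (horizontal axis), one point per mouse and tested probe. The shaded 115.7 kb holds the 6 heavy chain probes, where every mutant point is above every null point of the same probe, and 9 neighbouring probes lie outside it.

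The thin filament members had differences near or below 0 under the main settings. Acta1 had log2 ratios of -0.25 and -0.36 in the mutant mice, against 0.19 and -0.18 in the null mice, a difference of -0.31 (SE 0.21, 95% interval -0.86 to 0.23). It was the 1 tested member probe with both mutant mice below both null mice, and the difference was -0.125 without null mouse 1. Tnnc2 gave -0.19 and -0.50 in the mutant mice and 0.04 and -0.25 in the null mice, a difference of -0.25 (SE 0.22), with the genotypes overlapping. Tnnt3, the fast troponin T that holds the complex on tropomyosin, gave -0.01 and 0.11 in the mutant mice and 0.06 and -0.04 in the null mice, a difference of 0.04 (SE 0.18). The pool was not well above background on any array for this probe, so these ratios rest on a pool signal near background. Without null mouse 1 the differences were -0.10 for Tnnc2 and 0.09 for Tnnt3. From Agilent processed signals they were -0.35 for Acta1, -0.26 for Tnnc2 and 0.36 for Tnnt3. With median centring in place of loess the differences of Acta1 and Tnnc2 were 0.30 and 0.38 and that of Tnnt3 was -0.14. The median of all probes moved to 0.38 under that scaling, and none of the 3 lay above it.

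The light chain, Z disc and energy members also failed the threshold (adjusted p = 0.985 for each in limma). Mylpf, the regulatory light chain of fast myosin, gave log2 ratios of 0.19 and 0.12 in the mutant mice and -0.13 and 0.07 in the null mice, a difference of 0.19 (SE 0.18) with no overlap. Actn3, the alpha-actinin that anchors thin filaments at the Z disc of fast fibres, gave 0.03 and -0.05 in the mutant mice and -0.29 and -0.07 in the null mice. Its genotypes lay close but did not overlap, and the difference was 0.16 (SE 0.19). Ckm, the muscle creatine kinase that regenerates ATP at the filaments, gave -0.08 and -0.33 in the mutant mice and 0.07 and -0.09 in the null mice, a difference of -0.20 (SE 0.20) with overlap, and was 0.15 with median centring, below the median of all probes there. The 95% intervals of these members were -0.28 to 0.66 for Mylpf, -0.32 to 0.65 for Actn3 and -0.70 to 0.30 for Ckm. Each includes 0, and with 2 mice per genotype the data do not tell apart the differences within it. Without null mouse 1 the differences were 0.091 for Mylpf, 0.053 for Actn3 and -0.12 for Ckm. From Agilent processed signals they were 0.50 for Mylpf, 0.38 for Actn3 and -0.32 for Ckm. With median centring Mylpf gave 0.36 and Actn3 0.32, also below the median of all probes there.

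Mutant prostate was also set against the wild-type pool. No member probe passed the threshold in limma, as for 0.0% of all probes, and none of 12 had an unadjusted p under 0.05 in either direction, against 6.27% of all probes higher and 4.36% lower. Both mutant mice were above the pool for 3 member probes, the overlapping pair of Myh2 and that of Mylpf, against 37.2% of all probes. Both were below it for 5, those of Acta1, Tnnc2, Ckm and Myh4 and the dim Myh2 probe, against 29.3% of all probes. The member median was -0.09 and that of all probes 0.03. The largest mean ratios were 0.39 (SE 0.18) for Myh2 A_52_P552036 and -0.35 (SE 0.15) for Tnnc2.

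In null prostate against the pool, the lowest member values were those of heavy chains. No member probe passed the threshold in limma, as for 0.0% of all probes. At an unadjusted p under 0.05, 4 of 12 member probes were lower than the pool, against 5.38% of all probes, and none was higher, against 4.82%. The 4 were those of Myh1, Myh4 and Myh8 and 1 of Myh2. Myh1 averaged -1.12 ± 0.46 and Myh8 -1.07 ± 0.15 (SD, n = 2 each), with adjusted p = 0.474 in limma for both. Without null mouse 1 the values were -0.79 for Myh1 and -0.96 for Myh8. Myh2 A_51_P225134 averaged -0.41 ± 0.29, and -0.21 without null mouse 1. For Myh4, which neither null array detected well above background, the fitted value of -0.66 depends on the background correction: it was -1.81 with normexp offset 0 and -3.05 from processed signals. Without null mouse 1 the count of 4 member probes fell, and so did that over all probes. Both null mice were below the pool for 6 member probes, against 27.3% of all probes, and above it for none, against 29.2%. The member median was -0.16, against 0.02 for all probes. Acta1 averaged 0.01 ± 0.26 and Ckm -0.01 ± 0.11. Both genotypes share the pool, which is 1 control sample: variation among wild-type animals does not enter these tests, and any dye effect on a probe does.

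Over all 4 mice against the pool, 3 of 24912 probes passed the threshold, which is 0.012%, and none was a member. At an unadjusted p under 0.05, 3 member probes were lower, those of Myh1, Myh4 and Myh8, against 8.26% of all probes, and none was higher, against 9.31%. Their fitted mean log2 ratios were -0.63 (SE 0.20), -0.48 (SE 0.11) and -0.60 (SE 0.11).

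Other genes of skeletal muscle were read from 6 lists of 75 genes, of which 41 had a tested probe, 1 probe a gene. None of the 41 was called by limma between the genotypes or for either genotype against the pool. Between the genotypes their median log2 difference was -0.11, against 0.02 for all probes. The arrays did not overlap for 13 lower and 3 higher in mutant mice, against 13.6% and 16.8% of all probes. Not all of the 41 were well above background in both channels on all arrays. The share ran from 5 of 5 other fast fibre genes to 5 of 9 metabolism genes. Tpm1, Tpm2 and Des, among the 13, are also used by smooth muscle. At an unadjusted p under 0.05 there were 4 of 41, Tpm2, Casq2, Tcap and Fbxo32, with Tcap named after its value was seen. All 4 were lower in mutant mice, against 0.996% of all probes. Without null mouse 1 the median was -0.06, with 17 below and 8 above null mouse 2 in both mutant mice, against 30.2% and 32.2% of all probes. In all 4 mice 11 of 41 lay below the pool, which is 26.8%, against 14.8% of all probes.

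Among other fast fibre contractile genes, 5 of 7 were tested, with a median difference of -0.31 and 3 lower in mutant mice without overlap. The tropomyosin gene Tpm2 was at -1.28 and -0.92 in the mutant mice, against 0.20 and -0.57 in the null mice, and Tpm1 at -0.80 and -0.52, against 0.08 and -0.27. Both tropomyosin genes are also used by smooth muscle. Among slow fibre and cardiac genes, 8 of 13 were tested with a median of -0.09 and 3 lower without overlap. Actc1, the cardiac actin, differed by -0.35 (SE 0.20) and Tpm3 by 0.04 (SE 0.22). Sarcomere scaffold and Z disc genes, 11 of 19 tested, had a median of -0.07, with 4 lower and 1 higher without overlap. Fbxo32, a ubiquitin ligase component induced in wasting muscle, was at -1.39 and -0.90 in the mutant mice, against -0.60 and -0.05 in the null mice. The intermediate filament gene Des was at -0.17 and -0.50, against 0.09 and -0.10.

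For calcium handling genes, 5 of 12 were tested, with a median difference of -0.22 and 3 lower without overlap. Casq2, the cardiac and slow fibre calsequestrin, was at -0.86 and -0.78 in the mutant mice, against 0.02 and -0.33 in the null mice. Atp2a1, the calcium pump of fast fibres, differed by -0.22 (SE 0.24) with overlap. Muscle metabolism genes, 9 of 12 tested, had a median of -0.04, with Eno3 differing by -0.17 (SE 0.24) and Pfkm by -0.04 (SE 0.20). Of 12 genes of developing and regenerating muscle only 3 were tested, with a median of 0.07. Ncam1, a cell adhesion gene also used by nerve, differed by 0.39 (SE 0.35), and Mymk, needed for myoblast fusion, by -0.15 (SE 0.20).

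Smooth muscle genes were read beside these lists, since the prostate holds smooth muscle. Of the 10, Des is also in the scaffold list. All 10 had a tested probe, well above background in both channels on all arrays, and their median difference was -0.43, with 7 lower and 0 higher in mutant mice without overlap, against 13.6% and 16.8% of all probes. Without null mouse 1 the median was -0.22. In both mutant mice 7 were below and 0 above null mouse 2, against 30.2% and 32.2% of all probes. No gene passed the threshold. Their medians were -0.18 and -0.52 in the mutant mice, against 0.28 and -0.09 in the null mice. Cnn1, a calponin of smooth muscle, was at -0.08 and -0.53 in the mutant mice, against 0.52 and 0.18 in the null mice, and Tagln at -0.01 and -0.64, against 0.09 and -0.17. The prostate epithelial genes had a median difference of 0.19, with Tgm4 differing by 0.34 (SE 0.22) and Krt18 by -0.27 (SE 0.37). What part these tissue genes have in the muscle gene values was not tested.

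**Figure D5:**
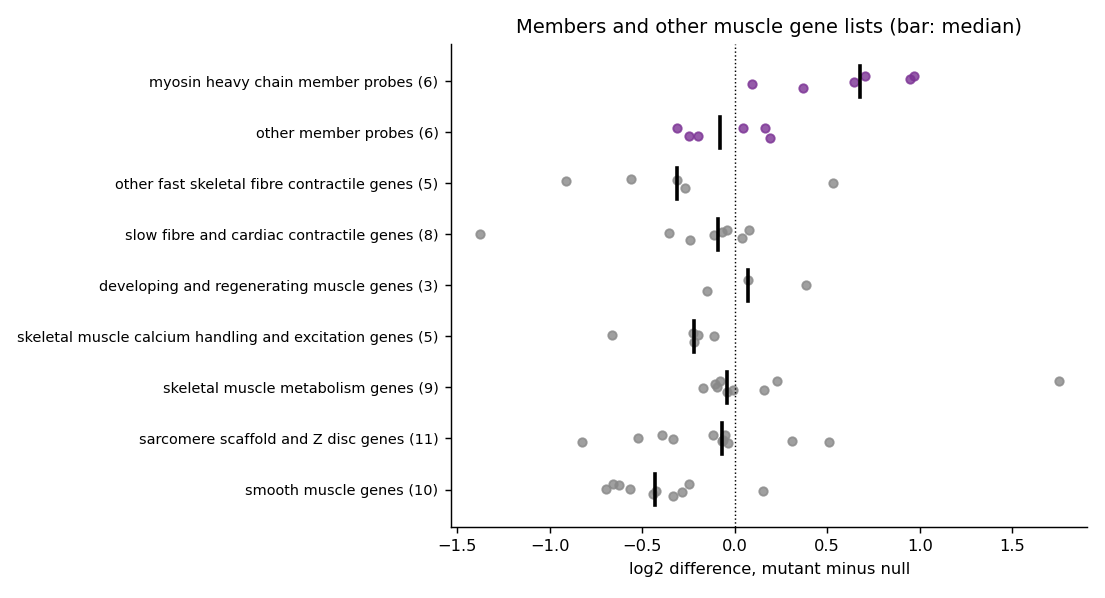
Log2 difference, mutant minus null (horizontal axis), one point per probe of the member groups and per gene of 7 muscle lists, with the number in brackets and a bar at the median. The values are those of the main settings, and those of the members changed with the processing. The 6 heavy chain probes lie between 0.09 and 0.97, while the medians of the other 6 member probes (-0.08) and of the smooth muscle genes (-0.43) lie below 0.

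The split into heavy chains and other members follows the proteins' roles, but was made with the values known, so it is a description. The genes whose ratios over the 4 arrays were most like those of Myh8 were Rab26 (Euclidean distance 0.28), Tcta (0.35) and Dynll2 (0.45), among 20462 probes well above background throughout. For Myh1 they were Prodh (0.40), Myh8 (0.51) and Rab26 (0.57). Rab26, a small GTPase of secretory vesicles, was at -0.11 and -0.49 in the mutant mice, against -1.10 and -0.87 in the null mice. With 4 arrays, such likeness is a weak description.

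In the authors' deposited table of group mean ratios, 17 rows carry accessions of the members, and 11 of these are higher in the mutant group, against 51.69% of all 26174 rows. Of 10 heavy chain rows in the authors' deposited table, 8 are higher in the mutant group. The larger over the smaller mean there is 5.20 and 3.26 for the Myh4 rows and 3.07 and 1.16 for the Myh1 rows. It is 2.39 for the Myh8 row that is higher in the mutant group. Neither Myh4 probe was well above background on a null array, so the size of its ratios is not measured. The Myh1, Myh8 and Tnnt3 rows include probes that were not well above background in any channel or array. No ratio there is below 1.13. For Acta1, Tnnc2 and Ckm the authors' deposited table has the mutant group lower, by ratios of 1.28, 1.20 and 1.21. Its 2 Tnnt3 rows differ in direction, with ratios of 1.39 higher and 1.78 lower in the mutant group. The authors' deposited table names the 3 rows of the Myh2 accession Myh1. The authors' deposited table holds no value per mouse and no p-value, and its scaling is not stated. Its column medians are 0.932 for mutant and 0.916 for null, and its values correlated with the array log ratios at Spearman's rho of 0.955 for mutant and 0.960 for null over 14303 accessions, which are not independent replicates. Its columns are therefore read as mouse over pool.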

How the data were processed

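The members and the gene lists were chosen with earlier results of these data known. The deposited scanner files hold spot brightness as intensity, read with Agilent Feature Extraction 9.5.1.1 per the file headers, although version 8.5 is named in the submitters' processing notes. The deposited log10 ratio is, per the file headers, that of red over green processed signal. It was not used, and processed signals, which the software had background-subtracted and dye-normalised, served as an alternative. The authors' deposited table holds mean ratios per genotype on a linear scale, and how they were scaled is not stated. Probe positions are those of the files, in mm7, and strands come from the RefSeq table of GRCm38.p6.

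Mean signals were corrected against background medians by normexp (offset 50) and normalised by loess within each array, with limma 3.58.1 (R 4.3.3). Loess gave control spots weight 0, and outlier-flagged spots were left out. Spots of a probe were averaged (43379 spots, 41174 probes). A probe was kept when well above background in the mouse channel on both arrays of a genotype or in the pool channel on all 4. This left 24916 probes, of which 24912 could be fitted, and those with a value on all 4 arrays, 24850, entered counts of overlap. All 4 arrays entered lmFit and eBayes with a term per genotype. Each mean ratio was tested against 0 and the genotypes against each other, with Benjamini-Hochberg adjustment over all probes and a threshold of 0.05. The script was tested on simulated data.

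All 10 members were named. Of each list the rule took members past the threshold, or else the 2 of highest mean intensity. The 3 probes nearest in Euclidean distance over the 4 ratios were named for the 2 members of widest range. The labels describe 2 biological replicates per genotype. All 4 arrays lay on 1 slide, and precision is limited by this number of arrays. Samples of equal replicate number share only a number: the differences between mouse 1 and mouse 2 correlated at r = 0.0035 across probes. Alternatives were the signal, the offset, the centring, the filters, outlier spots, 1 row per gene, a replicate block and leaving out each mouse.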

Additional observations from a re-analysis of the deposited data

Results flagged for a closer look

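Myh2, by its probe A_51_P225134, had both mutant mice above the wild-type pool and both null mice below it, with a difference of 0.71 on the log2 scale (adjusted p = 0.985 in limma, mutant higher in 2 of 2 mice). The overlapping Myh2 probe had null mouse 2 at 0.02. Groups of 2 mice were too small to look for single mice far from the others.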

How the results depend on the processing

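Heavy chain probes were higher in mutant mice in 6 of 6 tested, or 4 of 4 where fewer were kept, under every setting run. The 6 include 2 overlapping Myh2 probes and 1 kept only through the mutant arrays. Only the signal, the offset and the centring could have changed a sign. The filters, outlier spots, 1 row per gene and the block left each of these differences as it was. Leaving out 1 mouse could not turn them, since the genotypes did not overlap. With all 4 mice, the lowest adjusted p per setting was 0.548 to 0.993 in limma. In null mice the heavy chain probes lay below the pool under the same settings, except that 5 of 6 did so without null mouse 1. Keeping spots with an outlier flag changed no count past the adjusted threshold, but took the member count at an unadjusted p under 0.05 between the genotypes to 2, against 3, and with the replicate number as a block the count between the genotypes stayed at 0 probes and the member median at 0.18, with 2 members at an unadjusted p under 0.05. The gene lists without null mouse 1 were added after seeing the data.

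Median centring in place of loess moved the median of all probes to 0.38 between the genotypes, 0.60 in mutant and 0.14 in null mice against the pool, and 0.37 over all 4 mice. Under it the log2 difference between the genotypes turned for Acta1 (0.30), Tnnc2 (0.38), Ckm (0.15) and Tnnt3 (-0.14). Against the pool, mutant values turned for Acta1 (0.86), Tnnc2 (0.78), Myh8 (0.60), Myh1 (0.52), Ckm (0.21), Actn3 (0.18) and Tnnt3 (-0.19), and null values for Tnnc2 (0.40), Ckm (0.063), Mylpf (0.035) and Tnnt3 (-0.047). It gave 4263 probes past the threshold over all 4 mice against the pool, 1 of them a member, Acta1. Of the values that turned between the genotypes, none lay above the median of all probes under that setting.

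The member median between the genotypes was 0.703 from Agilent processed signals, 0.349 with offset 0, 0.369 with median centring and 0.122 to 0.281 leaving out 1 mouse. In mutant mice against the pool it was -0.247 from processed signals, 0.461 with median centring and -0.086 to 0.0083 leaving out 1 mouse. In null mice against the pool it was -0.527 from processed signals, -0.400 with offset 0, -0.134 with median centring, -0.176 with the stricter filter on both channels, -0.139 with 1 row per gene and -0.208 to -0.159 leaving out 1 mouse. Over all 4 mice it was -0.229, -0.195 and 0.079 from processed signals, with offset 0 and with median centring.

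Probes past the threshold in mutant mice against the pool numbered 3 with offset 0, 2 with the stricter filter, 2 with 1 row per gene and 0 to 2 leaving out 1 mouse. In null mice they numbered 2 with offset 0, 2 with the stricter filter and 0 to 384 leaving out 1 mouse, the 384 without null mouse 2. Over all 4 mice they numbered 6 from processed signals, 24 with offset 0, 5 with the stricter filter, 0 with no filter and 0 to 326 leaving out 1 mouse, the 326 without null mouse 2. Between the genotypes there were 0 to 9 leaving out 1 mouse, the 9 without null mouse 2. Where this leaves 1 mouse in a genotype, that mouse is assumed to vary like the others.

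Leaving out 1 mouse gave ranges that cross 0 for some members. Between the genotypes this was Tnnt3 (-0.016 to 0.102). In mutant mice against the pool these were Myh1 (-0.61 to 0.32), Myh8 (-0.30 to 0.061), Tnnt3 (-0.0099 to 0.108) and Actn3 (-0.050 to 0.026). In null mice against the pool these were Acta1 (-0.18 to 0.19), Myh2 A_52_P552036 (-0.53 to 0.018), Ckm (-0.091 to 0.069), Tnnt3 (-0.045 to 0.057), Tnnc2 (-0.25 to 0.045) and Mylpf (-0.13 to 0.066). Dim probes limit Myh4 and Tnnt3, whose signals lay near background in null mice or the pool.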
